A study of Arabidopsis thaliana with 24 samples.

Results

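Photosystems I and II (PSI and PSII) and their light-harvesting antennae are built in part from proteins encoded in the nuclear genome, and the transcripts of 40 such *Arabidopsis thaliana* genes were followed in 4 tissues of WT and clf-28 plants. The genes were chosen by identity, as LHCA1 to LHCA4, the LHCB1 to LHCB6 families and nuclear PSA and PSB subunits. Measured values were not part of this rule, though earlier results of these data were known. All 40 were found, in 39 of the 34178 lines of the deposited table. In 2 of these lines a pair of members was merged into 1 locus, LHCB1.1 with LHCB1.2 and LHCB2.1 with LHCB2.2. The PSAD1 line was merged with a gene outside the set, AT4G03080, over chromosome 4 positions 1229067 to 1529337 (coordinates of deposited loci are TAIR10 throughout), so its value is not that of PSAD1 alone. LHCA2 had a second line that reached at most 0.849 FPKM and was not tested. This left 38 lines tested, 7 of LHCII (LHCB1, LHCB2 and LHCB3), 5 of the minor PSII antenna (LHCB4, LHCB5 and LHCB6), 4 of the PSI antenna, 12 of the PSI core, 5 of the oxygen-evolving complex and 5 other PSII lines.

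WT was Col-0, and clf-28 is a mutant allele of CLF (CURLY LEAF), a histone methyltransferase gene of the Polycomb group. Roots and shoots (all aerial parts) came from plants 2 weeks old, grown on MS plates, and inflorescences and siliques from plants 5 weeks old, grown in soil, all in long days. The samples are whole organs, and single-end strand-specific RNA-seq was deposited as 3 libraries for each genotype and tissue, described as biological replicates. Levels are FPKM, fragments scaled by transcript length and by library size, which allow genes to be compared per length. Read depth is not known from the files.

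Against their labels, the third clf-28 shoots library and the third clf-28 siliques library each matched the other's tissue. The 38 lines and the second LHCA2 line made up 4.05% of the FPKM sum of the first and 19.5% of the second, against 16.0% and 19.1% in the other clf-28 shoots and 3.45% and 4.78% in the other clf-28 siliques. The share of 16.0% lacks LHCB1.3, whose value is missing in that library. Seed markers, which are outside the set, summed to 65839 FPKM in the third clf-28 shoots library, against 127 and 256 in the others. In the third clf-28 siliques library they summed to 196, against 61331 and 65707. Both libraries were left out, so clf-28 shoots and siliques have 2 each. Counts with all 24 libraries are given beside those from 22. Two-sided tests were made with limma on log2(FPKM + 1), and a line was called at a Benjamini-Hochberg adjusted p under 0.05 over all table lines tested. Each line had a single estimate of the spread between libraries, shared by all 8 groups. The libraries used had root markers at a sum of 401 to 443 FPKM in roots and at most 23.4 elsewhere, and floral markers at 497 or more in inflorescences and at most 168 elsewhere. CLF was listed at 6.05 to 19.5 FPKM in these libraries and was called in inflorescences (log2 difference 0.92, adjusted p = 0.0113) and siliques (1.16, adjusted p = 8.05e-04), higher in clf-28 in both. FPKM of the whole gene cannot show where the allele is disrupted.

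Antenna proteins bind chlorophyll and pass the energy of absorbed light to a reaction centre. LHCII trimers and the minor antenna serve PSII, which splits water through its oxygen-evolving complex, and the LHCA proteins serve PSI, which reduces ferredoxin. The reaction-centre subunits themselves are encoded in the chloroplast genome, whereas the genes described here are nuclear and are known for strong expression in green tissue and for weak expression in roots.

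Several members are near-identical copies, which bears on how reads could be assigned. The first 90 coding bases of LHCB1.1, LHCB1.2 and LHCB1.3 are shown for that reason, from RefSeq's annotation of TAIR10.1, with capitals at bases that differ from LHCB1.1.
LHCB1.1: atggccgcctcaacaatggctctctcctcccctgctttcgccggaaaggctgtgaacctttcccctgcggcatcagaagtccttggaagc
LHCB1.2: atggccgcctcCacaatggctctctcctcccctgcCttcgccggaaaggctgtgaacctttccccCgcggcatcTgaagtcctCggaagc
LHCB1.3: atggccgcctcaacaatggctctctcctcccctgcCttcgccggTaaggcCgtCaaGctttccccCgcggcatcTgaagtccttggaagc
Of these 90 bases 5 differ in LHCB1.2 and 7 in LHCB1.3. Over the 804 coding bases LHCB1.1 was 95.7% identical to LHCB1.2 and 96.1% to LHCB1.3, and LHCB2.1 was 92.9% identical to LHCB2.2. The split of FPKM between these copies is therefore uncertain. The Cufflinks status of LHCB1.3 was HIDATA, too many fragments to resolve, in all 3 WT shoots and in clf-28 shoots replicate 1, and that of LHCB1.1/LHCB1.2 in WT shoots replicate 3. Those 5 values are listed at 0 in the table and were taken as missing, so LHCB1.3 was not tested in shoots.

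The 3 LHCB4 genes encode the minor antenna protein CP29, and LHCB4.3 stood apart from LHCB4.1 and LHCB4.2 in level, as described below. The 250 bases before each annotated gene start (TAIR10.1, plus strand) are shown for that comparison, at chr5:208616-208865 for LHCB4.1, chr3:2717307-2717556 for LHCB4.2 and chr2:16745378-16745627 for LHCB4.3. Capitals mark a G-box (CACGTG), an I-box (GATAAG) or CCAATC, a motif bound by GLK factors, on either strand.
LHCB4.1: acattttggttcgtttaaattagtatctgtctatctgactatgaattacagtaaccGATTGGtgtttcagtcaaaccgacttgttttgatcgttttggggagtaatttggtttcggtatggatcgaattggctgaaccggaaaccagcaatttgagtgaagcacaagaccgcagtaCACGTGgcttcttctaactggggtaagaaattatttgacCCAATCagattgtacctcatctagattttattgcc
LHCB4.2: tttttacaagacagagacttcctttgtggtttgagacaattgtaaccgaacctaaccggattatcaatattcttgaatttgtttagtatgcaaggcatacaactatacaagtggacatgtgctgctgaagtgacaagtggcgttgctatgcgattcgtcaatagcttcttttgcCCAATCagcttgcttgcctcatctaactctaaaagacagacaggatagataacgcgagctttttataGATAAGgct
LHCB4.3: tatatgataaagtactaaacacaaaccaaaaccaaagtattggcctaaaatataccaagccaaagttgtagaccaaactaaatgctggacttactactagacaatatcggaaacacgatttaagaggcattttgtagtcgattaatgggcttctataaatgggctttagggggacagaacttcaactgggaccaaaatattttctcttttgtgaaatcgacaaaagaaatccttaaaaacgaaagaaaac
LHCB4.1 held a G-box and CCAATC, LHCB4.2 an I-box and CCAATC, and LHCB4.3 none of the 3 motifs in this window. Other members, such as LHCB3, LHCB5 and PSBO1, also held none of the 3, so this lack is not particular to LHCB4.3. Among all 40 genes 8 had a G-box, 9 an I-box and 11 CCAATC in such a window. Of 27443 promoters of protein-coding genes the same motifs were in 6.49%, 12.3% and 10.2%. A match is a run of letters and was not tested as a binding site.

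In WT the photosystem and antenna lines were highest in shoots, lower in siliques and inflorescences, and lowest in roots. They made up 16.5% to 16.8% of the FPKM sum in WT shoots, in which the missing LHCB1.3 values are not counted. The missing LHCB1.1/LHCB1.2 value of WT shoots replicate 3 is not counted either, so that share covers fewer lines. In siliques the share was 3.53%, 10.9% and 11.2%, in inflorescences 3.56% to 4.54%, and in roots 0.156% to 0.241%. In limma 37 of 37 lines with a WT shoot value were called lower in WT roots than in WT shoots, where 22.9% of all lines were (31.6% were higher, 54.5% either way), with a median log2 difference of -7.11 against 0.07 over all lines. In WT inflorescences 36 of 37 were lower and 1 higher than in WT shoots, where 20.1% and 33.6% of all lines were called (53.7% either way), and the median was -2.24 against 0.14. In WT siliques 34 were lower and 1 higher, against 21.5% and 30.8% (52.3% either way), with a median of -1.25 against 0.08. These 3 comparisons share the WT shoot libraries. Inflorescences and siliques came from older plants in soil and shoots from younger plants on plates. Tissue, age and growth conditions cannot be told apart in those 2 comparisons. The siliques count was 7 with all 24 libraries and 12 in a fit of siliques and shoots alone, where 39.6% and 50.8% of all lines were called in either direction.

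**Figure D1:**
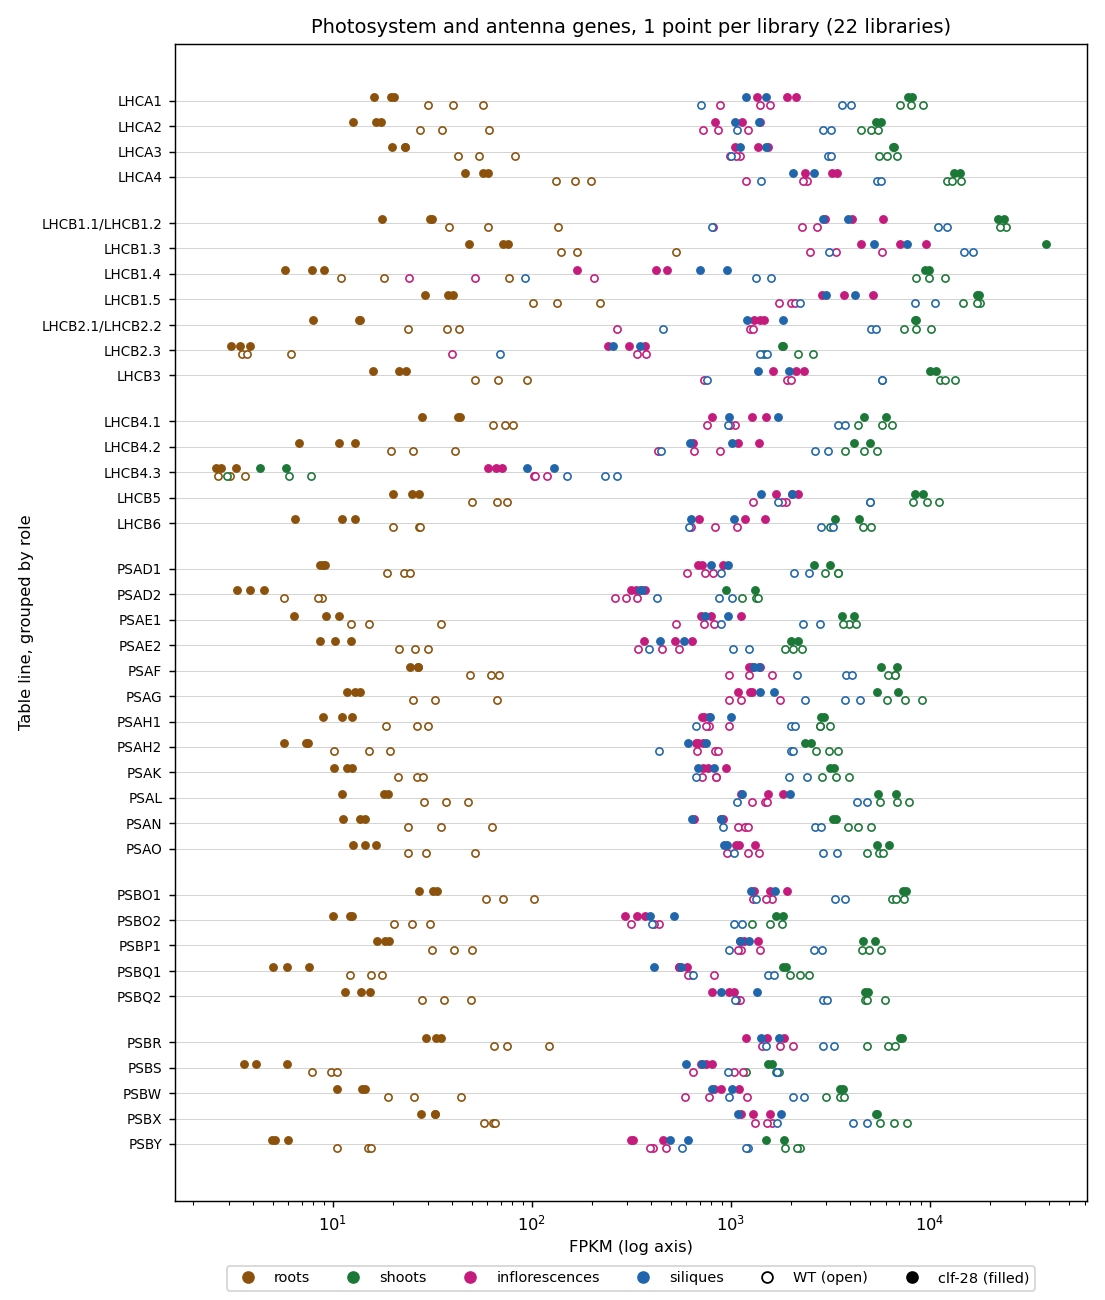
FPKM of the 38 tested lines, 1 point per library on a log axis, grouped by role, with tissue as colour, WT open and clf-28 filled. Root values lie far below shoot values for every line but LHCB4.3, which is also low in shoots at 2.96 to 7.75 FPKM.

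LHCII lines held the highest levels. In WT shoots LHCB1.1/LHCB1.2 (AT1G29910 and AT1G29920, chromosome 1 positions 10468054 to 10475959), the main subunits of the trimer, had 24179 and 22506 FPKM in the 2 libraries with a value, and in clf-28 shoots 21957 and 23753. The same line had 135, 60.3 and 38.3 in WT roots, 812, 2727 and 2287 in WT inflorescences and 810.0, 10999 and 12231 in WT siliques, in the order of replicates 1 to 3. Replicate 1 was thus the highest of the WT roots and the lowest of the WT inflorescences and siliques. LHCB1.1/LHCB1.2 and LHCB1.5 stood above all other lines with a value in WT shoots by more than the spread between libraries. Further down, most neighbours in the order, such as LHCA4 at 13188 ± 1081 and LHCB3 at 12199 ± 1094 (SD, n = 3), differed by less than their spread. The one LHCB1.3 value in a shoot library used, in clf-28 replicate 2, was the highest of any member at 38407.

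LHCII had the lowest role median in each WT tissue against shoots, and the order of the other roles was not the same in each. From WT shoots to WT inflorescences the median log2 difference was -3.53 for LHCII, -2.61 for the PSI antenna, -2.55 for the minor antenna, -2.20 for the PSI core and -2.07 for the oxygen-evolving complex. In roots these medians were -8.18, -6.84, -7.23, -7.20 and -6.94, and in siliques -1.99, -1.70, -1.22, -1.17 and -1.29, in the same order of roles. LHCB1.4, which is outside the naming rule and was chosen after its values were seen, had the largest LHCII drop, -7.27 (adjusted p = 4.68e-06), from 11988, 8537 and 9956 FPKM in WT shoots to 206, 51.7 and 24.2 in WT inflorescences. Its neighbour in the genome LHCB1.5 was at 1.49 to 1.74 times LHCB1.4 in WT shoots and at 8.51 to 86.6 times in WT inflorescences. The coding sequences of the pair were 92.5% identical, with an identical run of 122 bases, so this split is uncertain too. PSBS, a PSII protein needed to dissipate excess light energy, had a log2 difference from WT shoots of -0.73 in WT inflorescences (adjusted p = 0.0185) and of -0.11, not called, in WT siliques (adjusted p = 0.747). A difference between roles was not tested.

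LHCB4.3 (AT2G40100, chromosome 2 positions 16745653 to 16747400), also named after its values were seen, was the exception among tissues. Its FPKM were 3.62, 3.04 and 2.66 in WT roots, 2.96, 7.75 and 6.05 in WT shoots, 103, 119 and 105 in WT inflorescences and 151, 234 and 267 in WT siliques. Roots and shoots overlapped at the lowest shoot value (log2 difference -0.61, adjusted p = 0.0406), and every inflorescence and silique value stood above them. The high values are all from the older plants grown in soil, so tissue, age and growth conditions cannot be told apart here. Against WT shoots the log2 difference was 4.13 (SE 0.24, adjusted p = 1.57e-10) in WT inflorescences and 5.09 (SE 0.24, adjusted p = 8.77e-12) in WT siliques, the 1 rise in each count above. LHCB4.1 was 740 to 1476 times LHCB4.3 in WT shoots and 7.32 to 10.2 times in WT inflorescences. Over the 22 libraries, which share tissue and genotype groups, the log2 level of each line was set against the median of 35 others. Pearson's r was 0.47 for LHCB4.3, 0.88 for LHCB1.4 and up to 0.999 for PSBO1, given as a description. The coding sequence of LHCB4.3 was 70.5% identical to LHCB4.1, while LHCB4.2 was 81.9% identical to it.

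**Figure D2:**
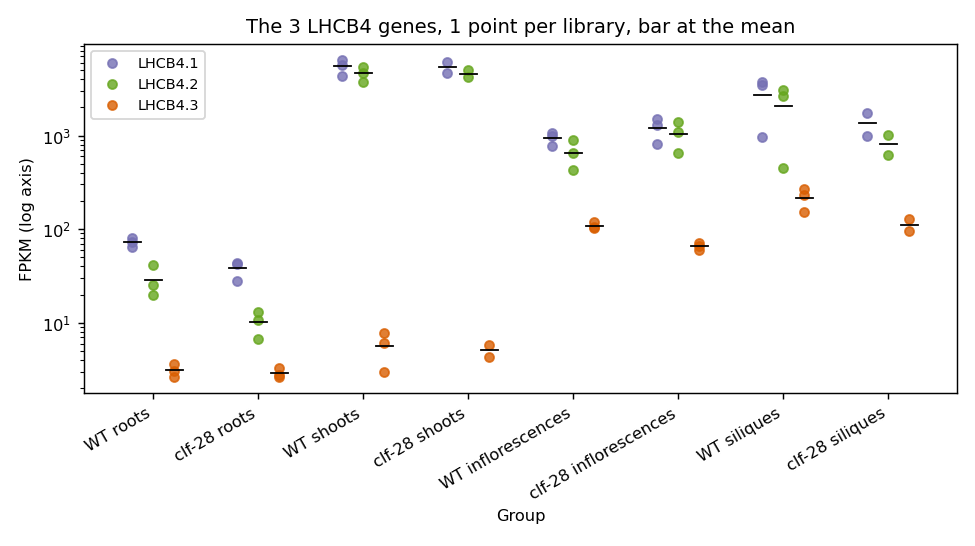
FPKM of LHCB4.1, LHCB4.2 and LHCB4.3 in the 8 groups on a log axis, 1 point per library and a bar at the mean. LHCB4.3 lies at 2.61 to 7.75 FPKM in roots and shoots, and at 60.2 to 267 FPKM in inflorescences and siliques.

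Where a subunit has 2 gene copies, the ratio of the copies moved over a narrower range. PSAD1, a stromal PSI subunit that docks ferredoxin, was at 1.85 to 3.28 times PSAD2 over the 22 libraries (with the merged neighbour in its line). PSBO1, the main manganese-stabilising protein, was at 2.63 to 5.15 times PSBO2, and PSBQ2 at 1.32 to 2.80 times PSBQ1. The ratios of 2 further pairs shifted between roots and the other tissues. PSAE1, another stromal subunit, was at 0.574 to 1.15 times PSAE2 in roots and at 1.495 to 2.31 times in the other tissues. Within roots the order of PSAE1 and PSAE2 was thus not the same in every library. PSAH1 was at 1.51 to 1.84 times PSAH2 in roots and at 0.863 to 1.53 times in the other tissues.

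In clf-28 roots the photosystem and antenna transcripts were lower. limma called 22 of 38 lines lower and 0 higher, where 2.52% and 6.26% of all 24335 lines tested were called, 8.78% in either direction. The median log2 difference of the 38 was -1.20, against -0.01 over all lines, and the ratio of group means ran from 0.214 to 0.924 with a median of 0.404. In 36 of 38 lines every clf-28 library was below every WT library, against 17.8% of all lines. The exceptions were LHCB4.3 and LHCB2.3, both under 7 FPKM in roots. The 38 tested lines and the second LHCA2 line held 0.0580% to 0.0808% of the FPKM sum in clf-28 roots, below every WT root library.

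**Figure D3:**
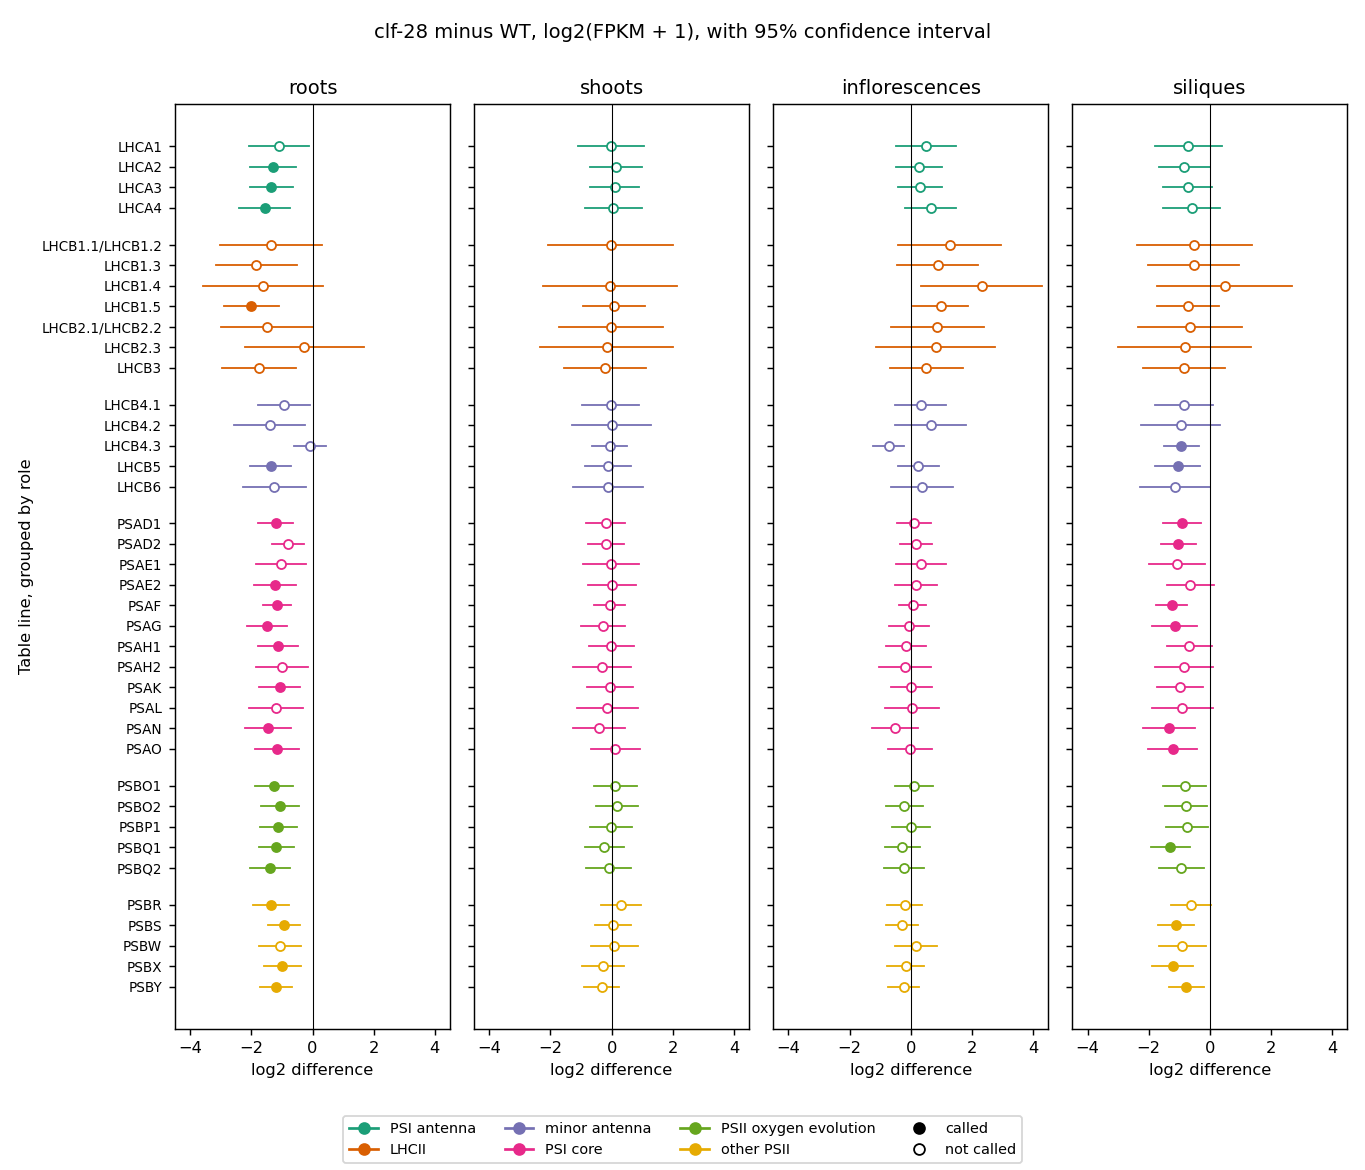
log2 difference between clf-28 and WT in each tissue for the tested lines, with the 95% confidence interval from limma, grouped by role. Filled points passed the test, 22 in roots and 12 in siliques and none in shoots or inflorescences, and LHCB1.3 has no shoot value.

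Of the antenna, the LHCII line LHCB1.5 (AT2G34420, chromosome 2 positions 14518406 to 14523568) had the largest called fall. It had 221, 134 and 101 FPKM in WT roots and 29.2, 37.9 and 40.2 in clf-28 roots, a log2 difference of -1.997 (SE 0.42, adjusted p = 0.00521). Every WT root value was above every clf-28 value. LHCA4 (AT3G47470, chromosome 3 positions 17486596 to 17495033), a PSI antenna protein, had 198, 165 and 132 in WT and 46.4, 60.4 and 56.9 in clf-28 (-1.57, SE 0.40, adjusted p = 0.018), again with no overlap. LHCB5 (AT4G10340, chromosome 4 positions 6408016 to 6409677), which encodes the minor antenna protein CP26, had 75.0, 67.2 and 50.3 and 20.2, 27.2 and 25.1 (-1.36, adjusted p = 0.00984). In all, 1 of 7 LHCII lines was called with a median of -1.63, 3 of 4 PSI antenna lines with -1.32 and 1 of 5 minor antenna lines with -1.25. The larger LHCII differences came with larger standard errors, as for LHCB1.3 (-1.84, SE 0.62, adjusted p = 0.0893) and LHCB3 (-1.75, SE 0.57, adjusted p = 0.0705). These errors use the spread shared by all 8 groups, so they do not measure the root libraries alone. For LHCB3 the clf-28 root values reached at most 23.4 FPKM, and the WT root values were at least 52.1. Its WT silique libraries were further apart, at 763, 5759 and 5748 FPKM. Leaving out 1 library at a time gave 7 to 34 lines called lower in roots, 34 without WT siliques replicate 1.

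In the PSI core 8 of 12 lines were called lower, with a median of -1.16. PSAG (AT1G55670, chromosome 1 positions 20802670 to 20803449), which helps to attach the antenna to PSI, had 67.2, 32.7 and 25.2 FPKM in WT roots and 13.8, 13.0 and 11.8 in clf-28 roots (-1.50, SE 0.31, adjusted p = 0.00399). PSAN (AT5G64040, chromosome 5 positions 25628588 to 25629615), a lumenal subunit that takes part in the docking of plastocyanin, had 63.4, 35.2 and 23.8 and 11.2, 13.8 and 14.6 (-1.45, SE 0.36, adjusted p = 0.0152). WT replicate 1 was far above the other WT libraries for both genes, and each clf-28 value lay below all WT values. PSAF (AT1G31330, chromosome 1 positions 11096895 to 11216080), the plastocyanin-docking subunit on a locus far longer than its gene, had 68.8, 62.8 and 49.2 and 26.8, 26.8 and 24.4 (-1.17, SE 0.21, adjusted p = 0.00148), with WT libraries closer together.

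All 5 lines of the oxygen-evolving complex were called lower, with differences of -1.39 to -1.06. PSBO1 (AT5G66570, chromosome 5 positions 26568653 to 26570278) had 102, 71.6 and 59.0 FPKM in WT roots and 27.2, 33.6 and 32.0 in clf-28 roots (-1.27, SE 0.30, adjusted p = 0.0105). Of the other PSII lines 4 of 5 were called. PSBR (AT1G79040, chromosome 1 positions 29736016 to 29740179), a small subunit near the oxygen-evolving complex, had 123, 75.6 and 64.9 and 29.4, 33.0 and 35.1 (-1.36, adjusted p = 0.00383). PSBX (AT2G06520, chromosome 2 positions 2587729 to 2588358), another small subunit, had 64.2, 65.8 and 57.6 and 27.9, 32.7 and 32.8 (-0.99, adjusted p = 0.0407). In both genes the groups were apart, and the WT libraries of PSBX were close together.

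The other calls in roots were LHCA2 (-1.28) and LHCA3 (-1.35) of the PSI antenna, PSAD1, PSAE2, PSAH1, PSAK and PSAO of the PSI core (-1.23 to -1.08), and PSBY (-1.20) and PSBS (-0.93) of PSII. Lines that missed the threshold were also negative, 16 in all, from LHCB4.3 at -0.08 to LHCB1.3. PSAD2 (-0.82, adjusted p = 0.0503) and PSBW (-1.05, adjusted p = 0.0554) lay just outside it, and PSBX just inside.

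Among other photosynthesis genes in roots, most Calvin cycle lines were called lower and most chlorophyll synthesis, rare antenna, assembly and regulator lines were not called. Of 15 Calvin cycle lines tested 12 were called lower (median -1.12), among them RBCS1B, a Rubisco small subunit gene on a line merged with another gene (-1.64), and GAPA1, a glyceraldehyde-3-phosphate dehydrogenase subunit (-1.18, adjusted p = 3.52e-04). Electron transfer and ATP synthase had 6 of 12 lower (median -0.71), led by the plastocyanin gene PETE2 (-1.26, adjusted p = 0.00102) and ATPC1 of the ATP synthase (-1.14, adjusted p = 4.01e-04). Chlorophyll synthesis had 3 of 15 lower (median -0.42), such as CRD1 (-1.18, adjusted p = 0.0081) and CHLI1 (-0.80, adjusted p = 0.00143), and its highest difference was 0.50, not called. Rare antenna and light stress relatives had 4 of 14 lower (median -0.44), with LIL3.2 at -1.15 and PSAP at -0.89. Assembly and light regulation had 2 of 10 lower, ALB3, which inserts antenna proteins into the membrane (-0.66), and HCF136, a PSII assembly factor (-0.54). Of 14 regulators 2 were lower, PIF1 (-0.75) and SIG6 (-0.45). Of 8 breakdown and senescence genes 1 was called, higher, on a line that merges PAO with another gene (2.44). No other line of these lists was called higher in roots, and differences between lists were not tested.

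In whole roots, fewer cells of a type and less RNA per cell cannot be told apart. None of 4 leaf epidermis markers reached 1 FPKM in any root library, with sums of 0.736 to 0.858 in WT and 0.680 to 0.750 in clf-28. Root markers, all 8 of 8 at 1 FPKM or more, summed to 401 to 438 in WT and 415 to 443 in clf-28, and 2 of them were called higher in clf-28, WOX5 (1.56, adjusted p = 4.69e-08) and PRP3 (0.93, adjusted p = 0.015). Seed markers summed to 13.6 to 18.5 FPKM in WT roots, 1 of 8 at 1 FPKM or more, and to 105 to 197 in clf-28 roots, 4 of 8, and their part in the result was not tested. WT roots replicate 1 had a chloroplast FPKM of 6737, against 111 and 137 in the other WT roots and 47.0 to 164 in clf-28 roots, and it held the highest WT value in 31 of 38 lines. Without it 10 lines were called lower, while 2561 of 24286 lines in all were called in either direction, more than with it. The count was 0 with all 24 libraries, 30 with the 6 root libraries alone, 14 with a pseudocount of 5 FPKM, 12 without WT roots replicate 2, 7 and 12 without clf-28 roots replicate 1 or 3, and 34 without WT siliques replicate 1. All lines were called in either direction at 4.15% with all 24 libraries, at 13.6% with roots alone and at 13.2% without WT siliques replicate 1. This share was 9.3% with the pseudocount of 5 FPKM and 6.11% without WT roots replicate 2. It was 5.47% and 5.58% without clf-28 roots replicate 1 or 3.

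In shoots no photosystem or antenna line passed the test between genotypes. limma called 0 of 37 lines higher and 0 lower, where 6.4% and 4.07% of all lines were called, and 0 passed an unadjusted p of 0.05. The differences ran from -0.41 for PSAN to 0.30 for PSBR, with a median of -0.03 against 0.01 over all lines. PSAG had 9152, 6072 and 7476 FPKM in WT and 6917 and 5427 in clf-28, a difference of -0.28 with a 95% interval of -1.01 to 0.44. PSBO1 had 6493, 6749 and 7395 and 7323 and 7570.2 (0.12, interval -0.58 to 0.82). The groups overlapped for PSAG and PSBO1 alike. In 6 lines both clf-28 values were below all WT values and in 1, PSBR, above, against 21.5% and 29.1% of all lines. Intervals of this width leave room for differences of the size called in roots in some lines, such as -2.08 to 2.02 for LHCB1.1/LHCB1.2. They use the spread shared by all 8 groups, so their width does not measure the shoot libraries alone. In shoots LHCB1.1/LHCB1.2 had 24179 and 22506 FPKM in WT and 21957 and 23753 in clf-28.

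Context lists in shoots had few calls. CP12-2 of the Calvin cycle (0.79, adjusted p = 0.0355) and PGRL1A of cyclic electron flow (0.64, adjusted p = 0.0377) were higher, 1 of 15 and 1 of 12. Of 14 regulators 1 was higher, PIF3 (0.67), and 3 were lower, among them PIF1 (-0.58). Of 8 breakdown and senescence genes 3 were higher, including the senescence factor ORE1 (1.49, adjusted p = 0.0021) and SGR1, which removes magnesium from chlorophyll (0.93, adjusted p = 0.0208). Chlorophyll synthesis, rare antenna and assembly lists had 0 calls. Seed markers summed to 14.3 to 16.4 FPKM in WT shoots and 127 to 256 in clf-28 shoots. The counts were 0 and 0 for the 37 photosystem and antenna lines in every alternative run.

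In clf-28 inflorescences no photosystem or antenna line passed the test, and LHCII differences were positive while core differences lay on both sides of 0. limma called 0 of 38 higher and 0 lower, where 1.7% and 2.21% of all lines were called, 3.91% in either direction, and 3 lines had an unadjusted p under 0.05. All 7 LHCII differences were positive, from 0.51 to 2.32 with a median of 0.88, as were the 4 of the PSI antenna, from 0.26 to 0.66. The PSI core had a median of 0.03 and the oxygen-evolving complex of -0.20, against 0 over all lines. The 5 LHCII lines with a value in every library used leave out LHCB1.1/LHCB1.2 and LHCB1.3, which lack some shoot values. Of the summed FPKM of all tested lines with such values, these 5 held 8.74%, 14.8% and 16.8% in WT inflorescences. In clf-28 inflorescences they held 18.4%, 19.5% and 20.5%. The groups did not overlap in this share, and the difference between roles was not tested. LHCB1.3, not in the share, had 5752, 3371 and 2517 FPKM in WT and 4494, 7134 and 9544 in clf-28, with overlap. LHCB1.1/LHCB1.2, also not in it, did not overlap.

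LHCB1.5 had 1755, 2003 and 2099 FPKM in WT inflorescences and 2883, 3724 and 5211 in clf-28 (0.97, SE 0.42, adjusted p = 0.251). Every clf-28 value was above every WT value, as also for LHCB1.1/LHCB1.2 and LHCB2.1/LHCB2.2, 3 of 38 lines against 7.91% of all lines. LHCA4 had 1199.8, 2432 and 2308 and 2364, 3247 and 3429.7 (0.66, adjusted p = 0.454), with overlap at the upper WT value. In 4 of 38 lines, LHCB4.3, PSBQ1, PSBQ2 and PSAN, every clf-28 value was below every WT value, against 10.1% of all lines. LHCB4.3 had 103, 119 and 105 in WT and 66.6, 60.2 and 70.6 in clf-28 (-0.72, SE 0.24, adjusted p = 0.116). LHCB1.4 had 169, 423 and 479 in clf-28, against the WT values above (2.32, SE 0.93, adjusted p = 0.202), with overlap at WT replicate 1.

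WT inflorescences replicate 1 differed from its group by role. For LHCII its FPKM was 0.111 times the mean of replicates 2 and 3 for LHCB2.3 and 5.43 times for LHCB1.4, with a median of 0.374 over 7 lines. For the 12 PSI core lines the ratio was 0.7995 to 1.69. The chloroplast FPKM of this library was 13276, against 438 and 1870 in the other WT inflorescences and 316 to 1140 in clf-28, and its part in the result was not tested. Without the 4 WT libraries numbered replicate 1, 3 lines were called higher (LHCB1.3, LHCB1.4 and LHCB1.5) and 3 lower (PSBS, LHCB4.3 and PSAN), named after their values were seen. In that fit 26.8% of all lines were called in either direction, a larger share than of the 38. Floral markers summed to 920 to 1050 FPKM in WT and 497 to 521 in clf-28, with 5 to 6 of 6 at 1 FPKM or more in both, and seed markers to 14.5 to 25.3 in WT and 92.4 to 181 in clf-28. The part of either in the result was not tested.

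**Figure D4:**
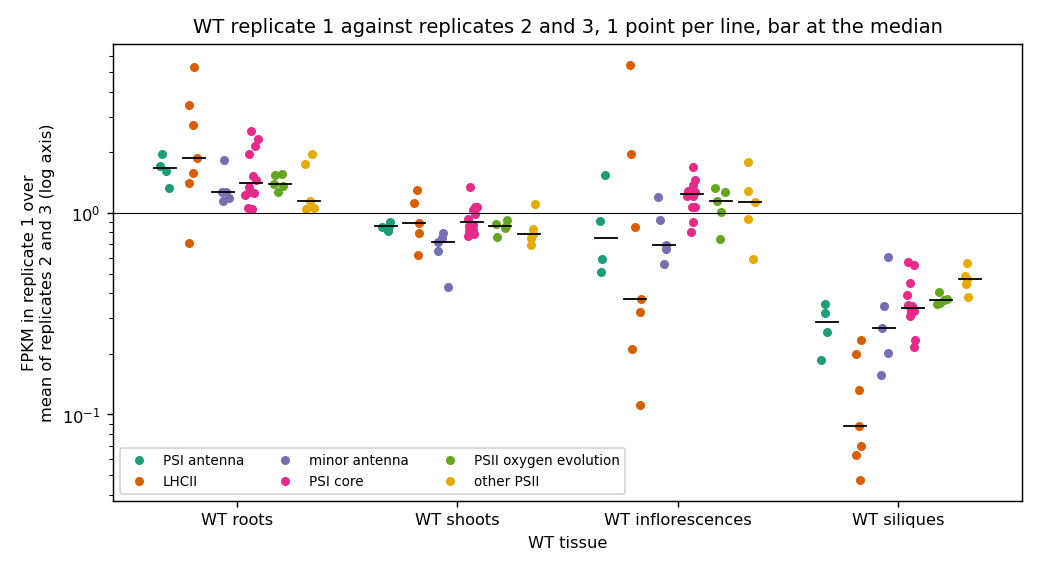
FPKM of each line in WT replicate 1 divided by the mean of replicates 2 and 3, on a log axis, for the 4 WT tissues and 6 roles, with a bar at the median. LHCII lines in WT inflorescences spread from 0.111 to 5.43, and all lines in WT siliques lie below 1, those of LHCII lowest with a median of 0.0875.

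In the chlorophyll synthesis list 2 of 15 genes were higher in clf-28 inflorescences. PORA and PORB, which encode light-dependent protochlorophyllide oxidoreductases, rose by 2.32 (adjusted p = 0.0184) and 2.15 (adjusted p = 0.0294). PORC, for the same enzyme, was not called, with 72.1, 90.9 and 103 FPKM in WT and 88.1, 69.0 and 71.8 in clf-28 (-0.21, adjusted p = 0.78). PORB had 389.5, 79.7 and 36.4 FPKM in WT and 398, 506 and 509 in clf-28, so WT replicate 1 was close to clf-28 and the other WT libraries far below. The ferredoxin gene FD1 was lower (-0.96, adjusted p = 0.0141), 1 of 12, as was the senescence protease gene SAG12 (-2.61, adjusted p = 1.15e-04), 1 of 8. PIF4 was higher, 1 of 14 regulators (1.51), as was VDE1 of the xanthophyll cycle, 1 of 10 (0.68), and PSB28 was lower, 1 of 14 (-0.48). The Calvin cycle list had 0 of 15 called.

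In clf-28 siliques 12 of 38 lines were called lower and 0 higher, where 16.4% and 12.2% of all lines were called, 28.5% in either direction. The median of the 38 was -0.85, against -0.05 over all lines. In 8 of 38 lines both clf-28 values were below every WT value, against 29.0% of all lines, and in 0 above, against 20.7%. The WT libraries were far apart. WT siliques replicate 1 was the lowest WT library in 38 of 38 lines and lay below both clf-28 libraries in 19 of them, while WT replicates 2 and 3 were above both clf-28 libraries in 38 of 38.

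The calls fell in the PSI core with 6 of 12, the other PSII lines with 3 of 5, the minor antenna with 2 of 5 and the oxygen-evolving complex with 1 of 5. PSAF had 2153, 3785 and 4063 FPKM in WT siliques and 1305 and 1389 in clf-28 (-1.25, SE 0.24, adjusted p = 8.43e-04). PSAN had 919, 2668 and 2833 and 636 and 899 (-1.33, SE 0.40, adjusted p = 0.0187). PSAG, below the 4 largest falls, had 2350.4, 3745 and 4459.7 and 1408 and 1660.2 (-1.15, adjusted p = 0.0183). In these 3 PSI genes WT replicate 1 lay between the other WT libraries and clf-28. PSBQ1 (AT4G21280, chromosome 4 positions 11334402 to 11335773) had 650.1, 1543 and 1658 and 412 and 564 (-1.30, SE 0.30, adjusted p = 0.00365). PSBX had 1715, 4134 and 4839 and 1089 and 1797 (-1.22, SE 0.32, adjusted p = 0.0087), with WT replicate 1 inside the clf-28 range.

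LHCII and PSI antenna lines had 0 of 7 and 0 of 4 called, with medians of -0.64 and -0.71. LHCB1.5 had 2225, 8433 and 10597 FPKM in WT siliques and 3007 and 4233 in clf-28 (-0.71, SE 0.47, adjusted p = 0.301). LHCA4 had 1422, 5442 and 5683 and 2065 and 2632 (-0.60, adjusted p = 0.36), and LHCB5, which was called, 1736, 5000.3 and 5011 and 1415 and 2024 (-1.05, adjusted p = 0.0334). In LHCB1.5 and LHCA4 the value of WT replicate 1 was below both clf-28 values. The other calls were PSAD2 (-1.03), PSAO (-1.21), PSAD1 (-0.91), PSBS (-1.11) and PSBY (-0.78), and LHCB1.4 was the 1 line with a positive difference (0.49, adjusted p = 0.80). LHCB4.3 fell from 151, 234 and 267 to 94.7 and 129 (-0.93, adjusted p = 0.0154). Relative to replicates 2 and 3, WT replicate 1 had ratios of 0.0473 to 0.234 for LHCII and 0.216 to 0.573 for the PSI core.

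**Figure D5:**
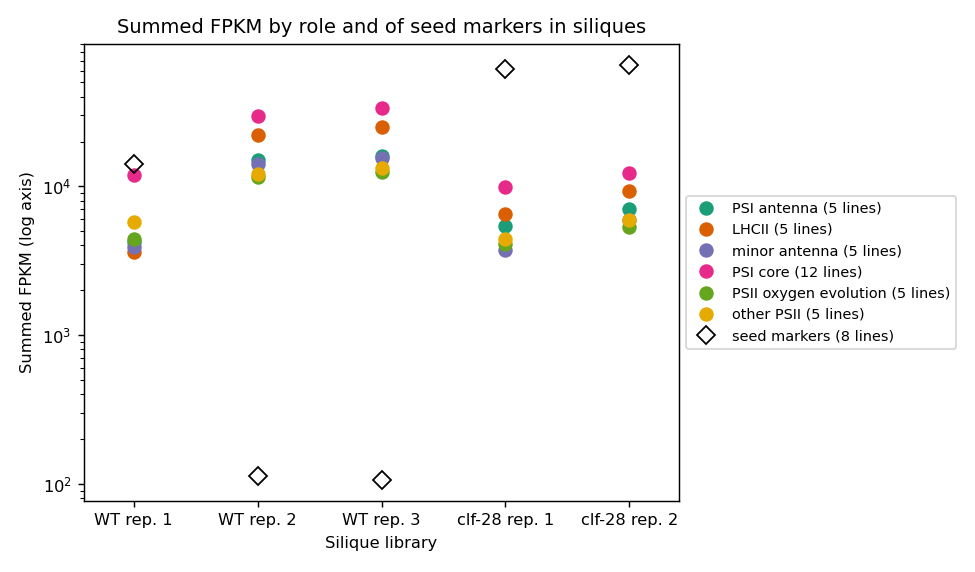
Summed FPKM of the lines of each role with a value in every library, and of 8 seed markers, in the 5 silique libraries used, on a log axis (the PSI antenna sum includes the second LHCA2 line). WT replicate 1 and both clf-28 libraries have lower role sums and higher seed marker sums, 14086 to 65707 FPKM, than WT replicates 2 and 3.

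Markers of several cell types differed among the silique libraries. Seed markers summed to 14086 FPKM in WT replicate 1, 112 and 106 in WT replicates 2 and 3, and 61331 and 65707 in clf-28, with 7 to 8 of 8 at 1 FPKM or more in every silique library. Floral markers summed to 112 to 168 FPKM in WT and 64.8 to 68.5 in clf-28, 2 to 3 and 2 of 6 at 1 FPKM or more. Leaf epidermis markers summed to 30.6 to 36.7 and 41.1 to 56.0, 2 to 3 and 3 to 4 of 4. Among the calls were FUS3 (3.49) and TT12 (-1.54) of the seed list, which went in opposite directions. Others were AP3 (-1.08) and AMS (0.50) of the floral list and TMM (1.92) and SPCH (0.60) of the leaf epidermis list. The part of these markers and of single libraries in the result was not tested. Without WT siliques replicate 1 the count of lines called lower was 36 of 38, in a fit that called 35.4% of all lines in either direction. It was 5 and 4 without WT replicate 2 or 3, 1 and 6 without clf-28 replicate 1 or 2, 0 with the silique libraries alone and 0 with all 24 libraries. All lines were called in either direction at 16.3% and 19.9% without clf-28 siliques replicate 1 or 2. They were called at 4.5% with the silique libraries alone and at 16.2% with all 24 libraries.

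Calvin cycle genes were lower in clf-28 siliques in 14 of 15 lines (median -1.34), with the merged RBCS1B line at -2.18 and SBPASE at -1.45 (adjusted p = 1.33e-04). Electron transfer and ATP synthase had 11 of 12 lower (median -0.87), led by the ferredoxin gene FD2 (-1.52, adjusted p = 6.02e-05). Chlorophyll synthesis had 8 of 15 lower (median -0.66), such as CHLI1 (-1.20), and rare antenna relatives 9 of 14 (median -0.79), such as LHCA6 (-1.63). Assembly had 2 of 10 and regulators 3 of 14 lower, among them HCF136 (-0.76) and SIG2 (-0.79). Of 8 breakdown and senescence genes 5 were higher, including ORE1 (1.76, adjusted p = 1.97e-04) and SGR1 (1.39, adjusted p = 4.52e-04).

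Whether the clf-28 difference varied between the 4 tissues was tested for 37 lines with an F test on 3 degrees of freedom. limma called 8 of 37, where 26.4% of all lines were called. The 6 with the smallest p were PSAF (adjusted p = 0.00532), LHCB1.5 (0.00805), PSBR (0.0299), LHCA4 (0.0327), LHCB5 (0.0352) and PSBO1 (0.0433), and LHCA3 and PSAD1 followed. For PSAF the difference was -1.17 in roots, -0.06 in shoots, 0.06 in inflorescences and -1.25 in siliques, and for LHCB1.5 it was -1.997, 0.08, 0.97 and -0.71. This share of the members is below that of all lines. The count was 36 without WT siliques replicate 1, where 36.3% of all lines were called, 7 to 11 without WT roots replicate 3, WT inflorescences replicate 1, clf-28 inflorescences replicate 1 or WT siliques replicate 3, and 2 to 5 without any one of the other libraries. It was 0 with all 24 libraries, where 2567 of all 24438 lines were called.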

How the data were processed

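The deposited table holds FPKM per locus for 24 libraries, made by the authors with TopHat, Cufflinks and Cuffdiff on TAIR10, per the submitters' processing notes; versions are not given in the sources used here. Totals of reads were not given, so depth and counting intervals are unknown. The deposited status words beside each value (unit other, not numbers) mark 128 values in 61 lines as FAIL or HIDATA; the authors list them at 0, and they were taken as missing here, a choice made after seeing the data. A further 48 columns matched no sample and were not used. The FPKM steps gave no whole reads.

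From the FPKM values, log2(FPKM + 1) was fitted with limma 3.58.1 in R 4.3.3 (trend and robust), with a mean per group over 22 libraries, on lines that reached 1 FPKM in 3 or more libraries. Fold changes on this scale understate those of low lines. Adjusted p-values are Benjamini-Hochberg over all lines tested in a comparison. The fit was run on simulated data in which each line had the same spread in every group. That run does not show how the fit behaves where the spread differs between groups, as in WT siliques. Alternatives changed the pseudocount, filter, scaling, libraries, status rule and block. Replicates are described as biological, without naming plants or pools, so p-values measure the spread between libraries. That spread is shared by all 8 groups, so a test within a tissue also draws on the spread in the other tissues. With the libraries of each tissue alone, 30 lines were called lower in roots and 0 in siliques, against 22 and 12 in the main fit.

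Values in every library are given for the highest line of each role, up to 4 of the largest called differences per comparison, and the 6 lines with the smallest interaction p, with up to 2 called genes of smallest p per context list. The genes and lists were chosen with earlier results of these data known. Sequences came from RefSeq's TAIR10.1, and 38 of 39 deposited loci overlapped the named gene there. Protein sequences were not used here.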

Additional observations from a re-analysis of the deposited data

Results flagged for a closer look

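Of 37 lines 8 had a genotype difference that itself differed among the 4 tissues, by limma's interaction test adjusted over all lines, a smaller share than the 26.4% of all lines, and 0 did with all 24 libraries. The 6 with the smallest p, chosen by the naming rule, were PSAF (adjusted p = 0.005315), LHCB1.5 (0.008048), PSBR (0.02986), LHCA4 (0.03267), LHCB5 (0.03517) and PSBO1 (0.0433), followed by LHCA3 (0.0457) and PSAD1 (0.0467). In PSBR the log2 difference was -1.36 in roots, 0.30 in shoots, -0.20 in inflorescences and -0.62 in siliques. In LHCA4 it was -1.57, 0.06, 0.66 and -0.60, in LHCB5 -1.36, -0.13, 0.25 and -1.05, and in PSBO1 -1.27, 0.12, 0.11 and -0.82, in the same order.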

How the results depend on the processing

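With the 24 libraries as labelled, 0 lines were called lower in clf-28 roots, 0 in siliques and 0 in the interaction, and 7 between WT siliques and WT shoots. A pseudocount of 5 FPKM gave 14 lower in roots and 1 lower in inflorescences. Without the 4 WT libraries numbered replicate 1, 37 were lower in siliques, 37 were called in the interaction, and 3 were higher and 3 lower in inflorescences, where 49.5%, 56.7% and 26.8% of all lines were called. The fit of each tissue alone gave 0 lower in siliques and 12 between WT siliques and WT shoots. Nuclear scaling gave 20 lower in siliques and 18 in the interaction, quantile normalization 22 in the interaction and 19 between WT siliques and WT shoots, median-of-ratios scaling 3 and no filter 5 in the interaction. The cause was not tested.

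Leaving out 1 library at a time gave 7 to 34 lower in roots, 1 to 36 lower in siliques, 0 to 1 higher and 0 to 1 lower in inflorescences, 36 to 37 for WT roots and 36 to 37 for WT inflorescences against WT shoots, 24 to 36 for WT siliques, and 2 to 36 in the interaction. It gave 0 to 0 higher in roots, siliques and shoots and 0 to 0 lower in shoots. With non-OK values kept at 0, LHCB1.1/LHCB1.2 turned to 1.07 in WT inflorescences and 2.55 in WT siliques against WT shoots, since a WT shoot value is then 0. Deviations of same-numbered libraries from their group means correlated at -0.214 to 0.125. With 2 or 3 libraries per group, these values cannot show whether the numbers pair the libraries. With the replicate block 23 lines were lower in roots, 11 in siliques and 8 in the interaction. Of 55 named member results with 1861 alternative values, 1718 kept direction and side of the threshold, 141 lost the call and 2 reversed. All 55 were called in the main fit, and they include the WT tissue comparisons and interaction F values, which have no direction. These totals therefore do not describe the calls between genotypes alone.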
